A study of Homo sapiens with 4 samples.

Results

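The genes described here are 10 genes of the epithelial tight junction: the claudins CLDN1, CLDN2, CLDN3, CLDN4, CLDN7 and CLDN12, occludin (OCLN), the junctional adhesion molecule A gene F11R, and the scaffold genes TJP1 and TJP3. They were taken by gene symbol from a table of 58735 genes, and each symbol matched 1 row. They were chosen by their FPKM in these libraries and by how far it differed between growth forms, so those values are given as a description and carry no test of their own. Of all genes, 14429 had a mean FPKM (a read count scaled to gene length and library size) of at least 1 over the libraries and were compared, and all 10 of the junction genes were among them. CLDN1, CLDN2, CLDN4 and OCLN reached that mean although at least 1 library of each was below 1 FPKM.

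RNA was sequenced from HCT116 and LOVO, human colorectal cancer cell lines of genotype WT, each grown as adherent cells and as spheroids, with 1 library for each of the 4 conditions. The adherent cells were kept in RPMI-1640 with fetal bovine serum and received no treatment. According to the study's methods the spheroids grew in ultralow attachment dishes in serum-free medium with growth factor supplements and with oxaliplatin, a platinum chemotherapeutic, dosed in micrograms per ml. The labels give a dose of 1 mg/ml and no drug name. Growth form, medium and drug changed together and cannot be told apart, and with 1 library per condition no value below carries a replicate error or a replicate check.

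Tight junctions seal the space between neighboring epithelial cells near their apical border. Claudins are 4-pass membrane proteins that form the strands and set which ions pass, occludin and junctional adhesion molecules lie beside them, and the ZO scaffold proteins encoded by the TJP genes tie the strands to actin. In the intestine CLDN3, CLDN4 and CLDN7 are known as sealing claudins, CLDN2 forms a pore for cations and water, and CLDN1 is known to be raised in many colorectal tumors.

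The reads on genes, recovered from the FPKM and gene lengths, numbered 15483569 to 20429147 per library. The labels call all libraries colon cancer cells, and 13 markers of colon epithelium were read to check this. The libraries labelled LOVO carried few of them. Their summed FPKM was 1754 and 1289 in the adherent cells and spheroids of HCT116, against 327 and 187 in the libraries labelled LOVO, where 7 of the 13 markers had 3 reads or fewer in each library, against 3 and 1 in HCT116. EPCAM was at 85.6 and 79.3 FPKM in HCT116 and at 0.93 and 1.499 FPKM in LOVO, CDH1 (E-cadherin) had 13 reads and 1 read in LOVO, and CDX2, the intestinal transcription factor, had 0 reads in both. The keratins KRT8 (189 and 81.6 FPKM) and KRT18 (122 and 98.8 FPKM) were present in LOVO, below their HCT116 levels. Those were 571 and 418 FPKM for KRT8 and 253 and 206 FPKM for KRT18. KRT19 was at 808 and 543 FPKM in HCT116 and at 14.9 and 4.85 FPKM in LOVO. KRT20 was at 0.930 and 7.45 FPKM in HCT116 and had 1 read and 2 reads in LOVO. Of 6 fibroblast markers, summed at 5.601 and 16.1 FPKM in HCT116 and at 54.0 and 72.8 FPKM in LOVO, LUM reached 31.4 and 50.4 FPKM and DCN 10.4 and 9.97 FPKM in LOVO, while COL1A2 was at or near 0 in all 4 libraries. COL1A1, most of the HCT116 sum, was at 5.51 and 15.5 FPKM there and at 9.89 and 6.10 FPKM in LOVO. Of 5 endothelial markers, summed at 2.47 to 10.3 FPKM over the libraries, PECAM1 was at 0.04 and 6.35 FPKM in the adherent cells and spheroids of LOVO, and ESAM was at 6.13 and 3.08 FPKM in HCT116 and 1.24 and 2.38 FPKM in LOVO. The 5 leukocyte markers summed to at most 0.304 FPKM. The part of these differences in the junction results was not tested. The HCT116 comparison does not use the libraries labelled LOVO, and every comparison between the lines rests on them.

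The sequences shown first are those on which the counting and the regulation of the leading claudins bear. CLDN3 and CLDN4, the pair with the largest differences in LOVO, are each coded without an intron in the coding sequence, and these sequences were 79.5% identical over 624 aligned bases. Within them 1 stretch of 71 bases was the same letter for letter, at positions 148 to 218 of the 663 coding bases of CLDN3 and 151 to 221 of the 630 of CLDN4, counted from 1 at the start codon. It codes for part of the first extracellular loop. Capitals mark the shared bases, and a read that lies within them cannot be assigned to either gene.
CLDN3 and CLDN4: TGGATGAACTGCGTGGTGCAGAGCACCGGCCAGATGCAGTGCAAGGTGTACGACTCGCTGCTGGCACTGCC
The stretch is short against the exonic lengths of 1274 bases for CLDN3 and 4702 bases for CLDN4. CLDN4 transcripts share stretches of 50 bases or more with 6 other genes in all, CLDN3 among them, and this one is the longest.

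Upstream sequences came from RefSeq on GRCh38.p14, as windows of 250 bases before and 50 after an annotated start site, which were found for 9 of the 10 genes. They were searched on both strands for the E-box, with the letters CAGGTG, which SNAI and ZEB repressors are known to bind. The GC box, with the letters GGGCGG, which SP1 family factors are known to bind, was searched in the same way and counted separately. Of 35116 windows of 300 bases, 20.6% held the E-box letters and 45.0% the GC box letters. The CLDN3 window held GC boxes at positions -220, -199, -67, -58, 14 and 18 from the start site and 1 E-box at position 37. CLDN3 was picked because its FPKM was 10.1-fold higher in LOVO spheroids than in adherent LOVO cells, an estimate from 306 and 27 reads. The 250 bases before its start (chr7:73770271-73770520, minus strand) are shown with GC boxes in capitals.
CLDN3: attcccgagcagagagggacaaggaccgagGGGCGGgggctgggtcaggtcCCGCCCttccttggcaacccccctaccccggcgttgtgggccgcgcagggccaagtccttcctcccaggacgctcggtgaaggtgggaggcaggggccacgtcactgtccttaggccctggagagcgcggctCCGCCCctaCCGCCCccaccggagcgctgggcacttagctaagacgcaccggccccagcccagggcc
The 65 bases from -94 to -30 of CLDN1 (chr3:190322476-190322540, minus strand), the claudin with the highest level in LOVO, lie between the CLDN1 and CLDN16 genes and hold GC boxes at -88 and -40 and no E-box, again with GC boxes in capitals.
CLDN1: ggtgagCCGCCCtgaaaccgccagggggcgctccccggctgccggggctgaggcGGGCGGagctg
CLDN7 differed from both, since 1 of its 2 windows held 5 E-boxes, at -174, -135, -20, -9 and 6. GC boxes were at -96 and -2 in that window. All 250 bases before its start site lie in annotated exons, unlike the stretches shown for CLDN3 and CLDN1. The 25 bases just before that start (chr17:7262479-7262503, minus strand) hold a pair of the E-boxes, in capitals.
CLDN7: atactCAGGTGcgcccCACCTGtcc
The other CLDN7 window held none. OCLN held 1 and 2 E-boxes in its windows, TJP1 and TJP3 held 1 each in 1 of their windows, and no E-box was found in the windows of CLDN1, CLDN2, CLDN4 and CLDN12. These matches are letters only.

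The 10 genes spanned a wide range of levels, and HCT116 and LOVO used different ones of them. CLDN7 and CLDN4 led in HCT116, CLDN1 led in LOVO, and OCLN and CLDN2 were among the 3 lowest in every library. In RNA from whole cultures, fewer cells with a transcript and less of it per cell cannot be told apart. The plot of levels by library shows all of these values.

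**Figure D1:**
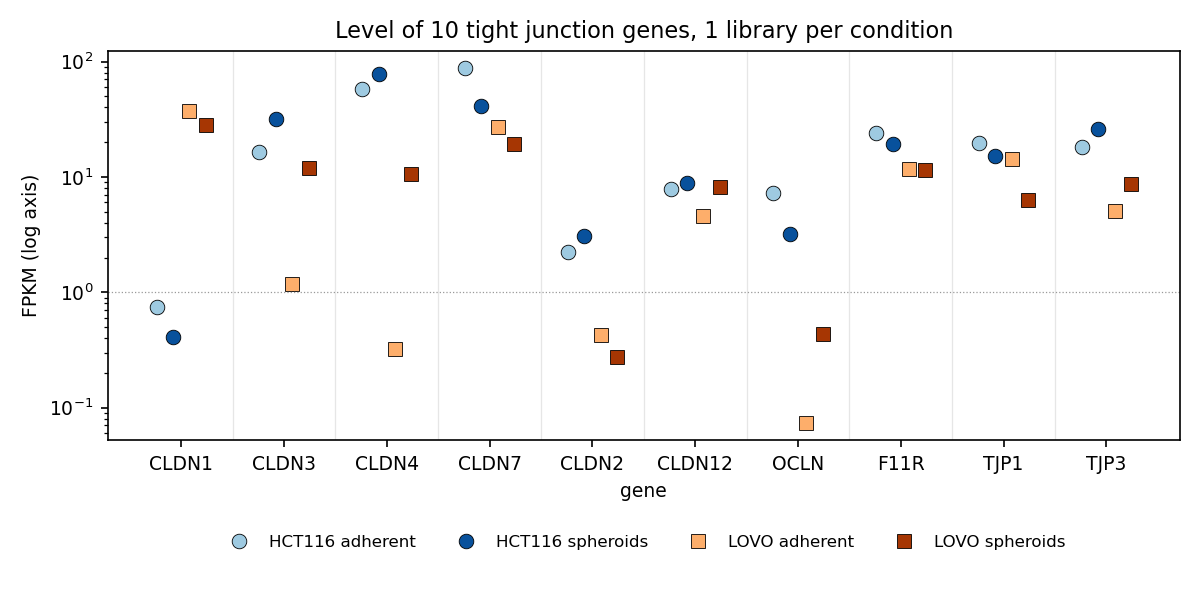
FPKM on a log axis of each tight junction gene in the 4 libraries, with circles for HCT116 and squares for LOVO, light for adherent cells and dark for spheroids. Each point is 1 library, so there are no error bars, and the dotted line is at 1 FPKM. CLDN1 is the only gene of the 10 with both LOVO points above both HCT116 points, and CLDN4 covers the widest range.

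CLDN4 and CLDN3 were the genes of the list that differed most between growth forms in LOVO, whereas in HCT116 CLDN7 and OCLN did. CLDN4 (ENSG00000189143, chr7:73799542-73832693, plus strand, GRCh38) was at 57.6 FPKM in adherent cells and 78.7 in spheroids of HCT116. In LOVO it was at 0.320 FPKM in adherent cells and 10.5 in spheroids. Behind these values stood 5518, 6221, 27 and 997 reads. Adherent LOVO cells were thus the low library, and the LOVO spheroids stayed below both HCT116 libraries. Because of the stretches shared with other genes, the 27 reads in adherent LOVO cells may not all be of CLDN4. On the log2(FPKM + 1) scale the difference of spheroids from adherent cells was 0.45 in HCT116 and 3.13 in LOVO. That scale understates differences of low values. As a ratio of FPKM with no pseudocount, CLDN4 was 32.9-fold higher in LOVO spheroids, a log2 ratio of 5.04 and its 95% exact interval for counting error (Clopper-Pearson) ran from 4.49 to 5.65. In HCT116 the ratio was 1.37-fold, with an interval from 0.40 to 0.50 in log2. These intervals cover counting error only and compare libraries, not conditions.

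CLDN3 (ENSG00000165215, chr7:73768997-73770270, minus strand) was at 16.5 FPKM in adherent cells and 32.05 in spheroids of HCT116, from 429 and 686 reads, and at 1.18 and 11.9 FPKM in LOVO, from 27 and 306 reads. Its order over the libraries was the same as that of CLDN4. The difference on the log2(FPKM + 1) scale was 0.92 in HCT116 and 2.57 in LOVO. Without a pseudocount CLDN3 was 1.94-fold higher in HCT116 spheroids (log2 interval 0.78 to 1.13) and 10.1-fold higher in LOVO spheroids (2.77 to 3.96). Among all genes compared, these differences stood at percentile 97.1 in HCT116 and 99.1 in LOVO, and those of CLDN4 at 87.3 and 99.5. The level of CLDN4 was 3.49 times that of CLDN3 per length in adherent cells and 2.46 times in spheroids of HCT116, but 0.271 and 0.883 times in the same order in LOVO. These ratios depend on the gene lengths, and by reads CLDN4 was also above CLDN3 in LOVO spheroids (997 against 306).

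CLDN7 and CLDN1 were lower in spheroids than in adherent cells, in HCT116 and in LOVO. CLDN7 (ENSG00000181885, chr17:7259903-7263983, minus strand) was at 87.1 FPKM in adherent cells and 41.4 in spheroids of HCT116, from 4426 and 1734 reads, and at 26.8 and 19.1 FPKM in LOVO, from 1199 and 960 reads. Both LOVO libraries lay below both HCT116 libraries. Spheroids were 2.10-fold lower in HCT116 and 1.40-fold lower in LOVO, with log2 differences of -1.06 and -0.47. The intervals of the log2 ratio ran from -1.15 to -0.99 and from -0.61 to -0.36 and excluded 0 in each line. AC003688.1 on the same strand and ELP5 on the opposite strand share 12.3% of the exonic bases of CLDN7, and whether strand was used in counting is not given in the sources used here.

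CLDN1 (ENSG00000163347, chr3:190305701-190322475, minus strand) showed the reverse order between the lines. It was at 0.750 FPKM in adherent cells and 0.406 in spheroids of HCT116, from 56 and 25 reads. In LOVO the levels were 37.5 and 27.9 FPKM, from 2465 and 2058 reads. Spheroids were 1.34-fold lower than adherent cells in LOVO, a log2 difference of -0.41 with an interval of the log2 ratio from -0.51 to -0.34. In HCT116 the log2 difference was -0.32 with the pseudocount and -0.88 without it, and the few reads left an interval from -1.63 to -0.18. CLDN1 shares no exonic base with another annotated gene.

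CLDN12 and CLDN2 stayed below 10 FPKM in every library. CLDN12 (ENSG00000157224, chr7:90383721-90513402, plus strand), a claudin known for a part in calcium transport, was at 7.89 FPKM in adherent cells and 8.79 in spheroids of HCT116 and at 4.61 and 8.15 FPKM in LOVO, from 1084, 996, 557 and 1106 reads. It had the narrowest range of the 10 genes, 0.80 in log2. Its log2 difference in spheroids was 0.14 in HCT116 and 0.71 in LOVO, where spheroids were 1.77-fold higher (log2 interval 0.68 to 0.97). Exons of 4 other genes on the same strand share 16.3% of its exonic bases.

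CLDN2 (ENSG00000165376, chrX:106900164-106930861, plus strand), the pore-forming claudin, was low throughout. It was at 2.23 and 3.05 FPKM in adherent cells and spheroids of HCT116, from 155 and 175 reads, and at 0.425 and 0.277 FPKM in LOVO, from 26 and 19 reads. Spheroids were 1.37-fold higher in HCT116, with a log2 difference of 0.33 and an interval of the ratio from 0.13 to 0.78. In LOVO the log2 difference was -0.16 and the interval of the ratio, from -1.55 to 0.29, held 0, so that a difference was not detectable at this depth. RIPPLY1 on the opposite strand shares 10% of the exonic bases of CLDN2.

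**Figure D2:**
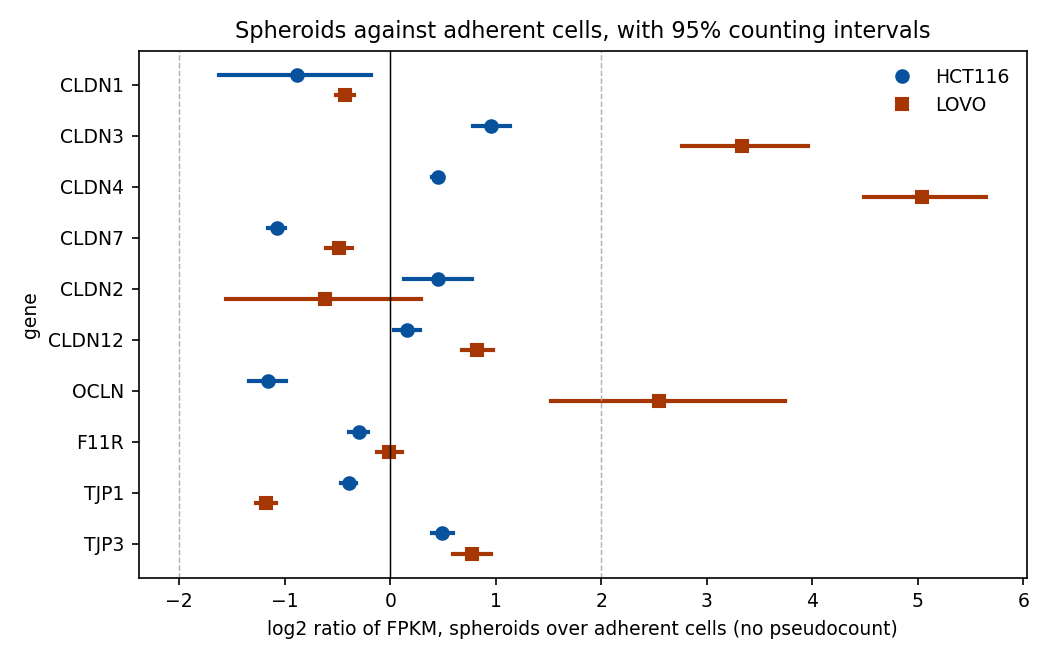
Log2 ratio of FPKM in spheroids over adherent cells, with no pseudocount, for each gene in HCT116 (circles) and LOVO (squares). Lines are 95% counting intervals from the recovered reads and hold no biological spread, and dashed lines mark ratios of 2 and -2 in log2. CLDN4, CLDN3 and OCLN lie far to the right in LOVO, at 5.04, 3.34 and 2.55, and OCLN lies on the other side of 0 in HCT116, at -1.16.

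The claudin genes were then set side by side within each library, which FPKM allows since it is per length. Over 24 claudin genes in the table, the summed FPKM was 185 and 179 in adherent cells and spheroids of HCT116 and 77.9 and 88.9 in those of LOVO. The 6 claudins of the list held 93.0%, 91.8%, 91.0% and 87.7% of these sums. CLDN7 held the largest share, 47.1%, in adherent HCT116 cells, followed by CLDN4 with 31.1% and CLDN3 with 8.92%. In HCT116 spheroids CLDN4 came first with 44.0%, then CLDN7 with 23.1% and CLDN3 with 17.9%. CLDN1 led in adherent LOVO cells with 48.2%, followed by CLDN7 with 34.4%, while CLDN3 held 1.52% and CLDN4 0.411%. In LOVO spheroids CLDN1 held 31.4%, CLDN7 21.5%, CLDN3 13.4% and CLDN4 11.9%. The sums of the growth forms of a line were closer to each other than those of the lines, while CLDN4 and CLDN3 held larger shares in spheroids and CLDN7 a smaller share in both lines. These orders rest on gene length. By reads CLDN4 held 44.8% and CLDN7 35.9% in adherent HCT116 cells, and CLDN12 (9.52%) in HCT116 spheroids came before CLDN3 (6.56%). In LOVO spheroids the order by reads was CLDN1 with 34.1%, CLDN12 with 18.3%, CLDN4 with 16.5% and CLDN7 with 15.9%. CLDN15, outside the list, came next with 5.68%, before CLDN3 with 5.06%. The table's length of CLDN4 is the union of the exons of 5 transcripts.

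**Figure D3:**
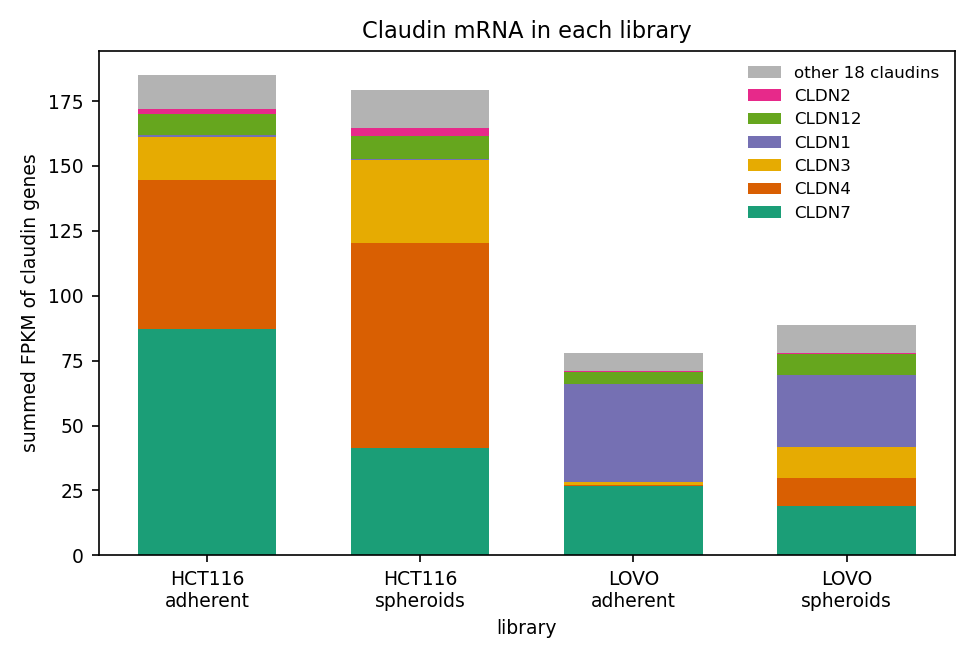
Summed FPKM of the claudin genes in each library, stacked by gene, with the 18 claudins outside the list in grey. The bars start at 0 and each is 1 library. CLDN4 and CLDN3 make up most of the HCT116 spheroid bar with CLDN7, and CLDN1 is the largest piece of both LOVO bars (48.2% and 31.4%).

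OCLN and F11R code for the other membrane proteins of the list. OCLN (ENSG00000197822, chr5:69492292-69558104, plus strand) was at 7.23 FPKM in adherent cells and 3.23 in spheroids of HCT116, from 996 and 367 reads, and at 0.0742 and 0.434 FPKM in LOVO, from 9 and 59 reads. It was the only gene of the 10 whose counting intervals excluded 0 on opposite sides in the lines. Spheroids were 2.24-fold lower in HCT116, with a log2 difference of -0.96 and an interval of the ratio from -1.34 to -0.99. In LOVO spheroids were 5.84-fold higher with an interval from 1.53 to 3.74 in log2, but both levels were below 1 FPKM, so the difference on the log2(FPKM + 1) scale was 0.42. OCLN transcripts share stretches of 50 bases or more with transcripts of 140 other genes, the longest of 324 bases, so that the 9 reads in adherent LOVO cells are uncertain in origin.

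F11R (ENSG00000158769, chr1:160995211-161021348, minus strand), the gene of junctional adhesion molecule A, differed little. It was at 23.8 FPKM in adherent cells and 19.4 in spheroids of HCT116, from 2460 and 1651 reads, and at 11.6 FPKM in both LOVO libraries, from 1057 and 1179 reads. Spheroids were 1.23-fold lower in HCT116, with a log2 difference of -0.28. In LOVO the log2 difference was -0.01 and the interval of the ratio ran from -0.13 to 0.11. A readthrough gene, AL591806.3, shares 36.6% of the exonic bases of F11R on the same strand, so its reads may not all be of F11R alone.

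The scaffold genes went in opposite directions. TJP1 (ENSG00000104067, chr15:29699367-29968865, minus strand), which codes for ZO-1, was at 19.9 FPKM in adherent cells and 15.1 in spheroids of HCT116, from 4562 and 2859 reads, and at 14.3 and 6.33 FPKM in LOVO, from 2894 and 1435 reads. LOVO spheroids were the low library. Spheroids were 1.32-fold lower in HCT116 and 2.26-fold lower in LOVO, with log2 differences of -0.37 and -1.06 and intervals of the ratio from -0.46 to -0.33 and from -1.27 to -1.09. TJP3 (ENSG00000105289, chr19:3708109-3750813, plus strand), which codes for ZO-3, was at 18.3 and 25.8 FPKM in HCT116 and at 5.05 and 8.64 FPKM in LOVO, from 1575, 1827, 382 and 733 reads. Spheroids were higher in both lines, 1.41-fold in HCT116 and 1.71-fold in LOVO, with log2 differences of 0.47 and 0.67. The level of TJP1 was therefore 1.08 times that of TJP3 in adherent cells and 0.586 times in spheroids of HCT116, and it was 2.84 and 0.733 times that of TJP3 in LOVO in the same order.

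Over the list, the differences between growth forms were not in 1 direction. In HCT116, 5 of the 10 genes were higher and 5 lower in spheroids. A log2 difference of 2 was passed by 0 genes of the list, against 0.201% of the 14429 genes above 2 and 0.506% below -2. At a threshold of 1, CLDN7 was below -1, as were 3.33% of all genes, and no gene of the list was above 1, against 2.19% of all. In LOVO, again 5 were higher and 5 lower. CLDN3 and CLDN4 were above 2, where 1.81% of all genes were, and none was below -2, where 0.943% of all genes were. At a threshold of 1 TJP1 was also past it, below -1 with 7.85% of all genes, and CLDN3 and CLDN4 were the 2 above 1, with 8.57% of all genes. The median over the 10 genes was -0.07 in HCT116 and 0.20 in LOVO, beside -0.03 and -0.06 over all genes. Since these contrasts were known when the genes were chosen, the shares are printed for scale and nothing is read from them.

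By gene, CLDN3, CLDN4, CLDN12 and TJP3 were higher in spheroids in each line, and CLDN1, CLDN7 and TJP1 were lower in each, all with a counting interval that excluded 0. F11R was lower in HCT116 spheroids and its interval held 0 in LOVO, CLDN2 was higher in HCT116 and undecided in LOVO, and OCLN was lower in HCT116 and higher in LOVO. A limma model took the lines as the only replicates, with line as a term and 1 residual degree of freedom. There, 0 of the 10 genes and 0.0% of the 14429 genes had a limma adjusted p under 0.05, the smallest being 0.462. At an unadjusted limma p under 0.05 stood 1545 genes, or 10.7%, CLDN3, CLDN4 and CLDN7 among them. The limma estimates were 1.74 (standard error 0.45) for CLDN3, 1.79 (standard error 0.66) for CLDN4 and -0.76 (standard error 0.28) for CLDN7. The genes were chosen with these values known, so the unadjusted p-values are no independent evidence.

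**Figure D4:**
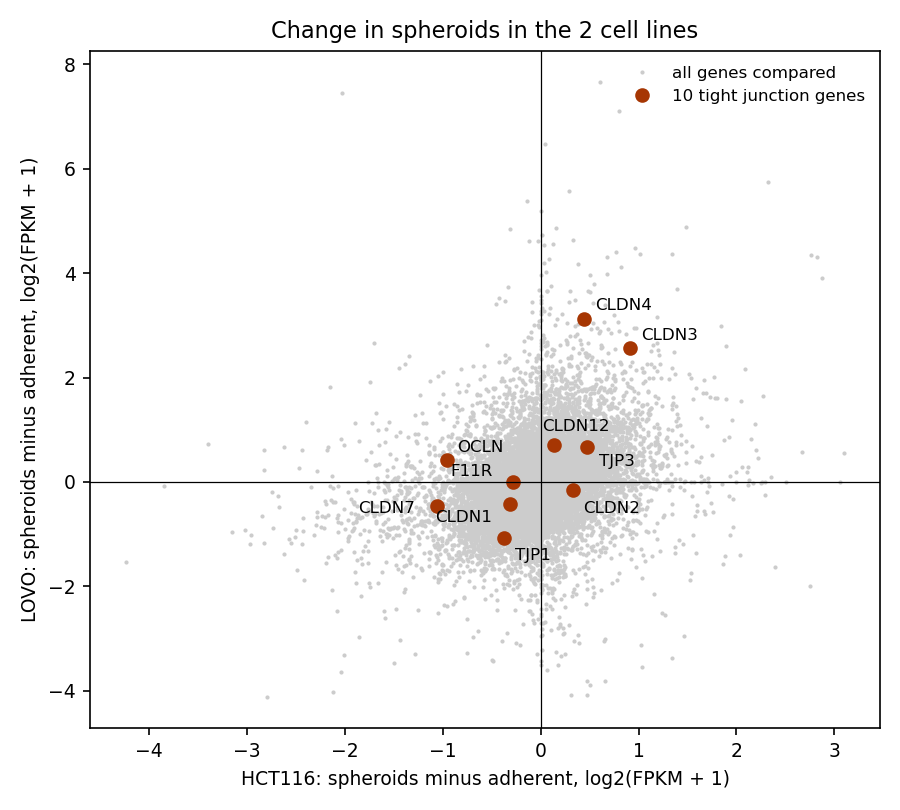
Difference of spheroids from adherent cells on the log2(FPKM + 1) scale in HCT116 (x axis) and LOVO (y axis) for the 14429 genes compared (grey) and the 10 tight junction genes (named). Each point rests on 1 library per condition. CLDN3 (0.92 and 2.57) and CLDN4 (0.45 and 3.13) lie at the upper edge of the cloud, and the other genes lie within it.

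More of the 10 genes were past 1 in the comparisons of the lines than in those of the growth forms. In adherent cells, 9 of the 10 genes were lower in LOVO than in HCT116, and CLDN1 was the exception. CLDN4 was 180-fold lower (log2 difference -5.47), OCLN 97.4-fold lower (-2.94) and CLDN3 14.0-fold lower (-3.01), and these 3 were below -2, as were 5.59% of all genes compared. CLDN1 was 50.03-fold higher (4.46) and above 2, as were 5.26% of all genes. CLDN7 (-1.66), TJP3 (-1.68) and CLDN2 (-1.18) brought the number below -1 to 6, against 16.4% of all genes, and CLDN1 stayed the 1 gene above 1, against 17.4%. CLDN12 (-0.66), F11R (-0.97) and TJP1 (-0.45) were closer to each other in the lines. The median over the list was -1.42, beside 0.07 over all genes.

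Spheroids of the lines differed in the same order for CLDN1 and by less for CLDN3 and CLDN4. CLDN1 was 68.7-fold higher in LOVO spheroids than in HCT116 spheroids (log2 difference 4.36), and it alone was above 2 or above 1, against 5.68% and 17.7% of all genes. CLDN4 was 7.47-fold lower (-2.79) and the 1 gene below -2, where 4.71% of all genes were, and CLDN3 was 2.68-fold lower (-1.35). In all, 7 of the 10 genes were below -1, against 15.0% of all genes. The interval for CLDN12, from -0.23 to 0.02, held 0. The median over the list was -1.24, beside 0.04 over all genes. These comparisons use the same libraries as those between growth forms, so that a low value in adherent LOVO cells enters both. They also set the libraries labelled LOVO, whose colon markers were low, against HCT116.

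**Figure D5:**
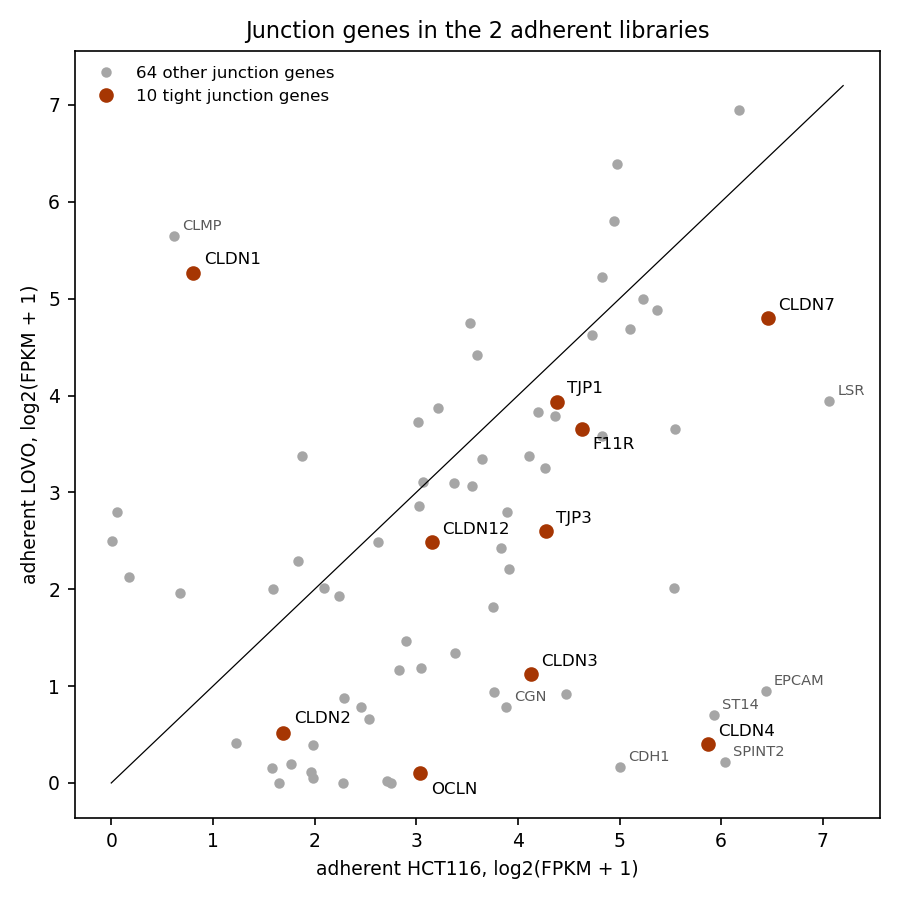
Level of the 10 tight junction genes (named, dark) and of 64 other junction genes (grey) in adherent HCT116 cells (x axis) and adherent LOVO cells (y axis), both as log2(FPKM + 1), with the line of equal levels. Each point is 1 gene in 1 library per axis. CLDN1 and CLMP lie far above the line, and CLDN4, OCLN and CLDN3 lie far below it, as do EPCAM, CDH1, SPINT2, ST14 and LSR.

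Other genes of cell junctions were read from a list of 94, of which 91 were in the table and 64 were compared. Between growth forms few of them differed. In HCT116, 0 of the 64 were below -1, and in LOVO 4 were above 1 and 5 below -1, with medians of -0.08 and -0.05. Between the lines, 32 of the 64 were below -1 in adherent LOVO cells, where 16.4% of all genes were, and 8 were above 1, where 17.4% were. In spheroids 29 were below -1, against 15.0% of all genes, and 4 above 1, against 17.7%, with medians of -0.92 and -0.81. The low levels in LOVO were therefore not limited to the 10 genes.

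Among the other 18 claudins, CLDN9 was the 1 gene of the 3 compared that passed 1 between growth forms, in LOVO. It was at 1.34 and 1.07 FPKM in HCT116 and at 0.326 and 2.08 FPKM in LOVO, with log2 differences of -0.17 and 1.22. MARVELD2, which codes for tricellulin at the corners where cells meet, neighbors OCLN on chromosome 5. It was at 4.80 and 3.92 FPKM in HCT116 and at 0.582 and 0.704 in LOVO, so it was low in LOVO as OCLN was. CGN (cingulin), a scaffold that binds ZO proteins, was at 13.7 and 16.6 FPKM in HCT116 and at 0.725 and 0.714 in LOVO. AMOTL2, an angiomotin family scaffold, was lower in LOVO spheroids by a log2 difference of -2.62, at 54.9 and 8.11 FPKM. PARD3B, a polarity gene, had a log2 difference of -1.66 in LOVO and 0.23 in HCT116.

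Partners of claudin-7 and their proteases were also low in LOVO. EPCAM, which binds claudin-7, differed by -0.11 between growth forms in HCT116 and by 0.37 in LOVO. SPINT1, an inhibitor of the protease matriptase, was at 45.4 and 39.8 FPKM in HCT116 and at 3.02 and 14.1 in LOVO, with log2 differences of -0.18 and 1.91. CD44, a hyaluronan receptor, was at 45.8 and 54.0 FPKM in HCT116 and at 11.6 and 33.4 in LOVO, a difference of 1.44 there. SPINT1 and CD44 thus shared with CLDN3 and CLDN4 a higher level in LOVO spheroids than in adherent LOVO cells. Of the adherens junction genes, CDH1 was at 31.1 FPKM in both HCT116 libraries, and CTNNA1 was at 122 and 59.3 FPKM in LOVO, a difference of -1.03.

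Transcription factors known to act on junction genes differed between the lines as well. GRHL2, an activator of epithelial genes such as CLDN4, was at 5.73 and 6.94 FPKM in HCT116 and had 0 reads and 1 read in LOVO. Against a floor of 3 reads in that library it was at least 208-fold lower in adherent LOVO cells. SNAI1, a repressor that binds E-boxes, was at 21.2 and 11.5 FPKM in HCT116 and at 0.893 and 5.28 in LOVO, with log2 differences of -0.83 and 1.73. SNAI2 was at 2.68 and 1.19 FPKM in HCT116 and at 9.35 and 2.62 in LOVO, with log2 differences of -0.75 and -1.52. KLF4 was at 19.6 and 16.9 FPKM in HCT116 and at 12.8 and 5.32 in LOVO, with log2 differences of -0.21 and -1.13. The CLDN7 window with 5 E-boxes, and the other CLDN7 window and the CLDN4 window with none, are given above beside these levels. CLDN4 has 5 annotated start positions, not all of them within the window searched. No relation between the windows and these levels was tested.

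CLDN4 had the widest range of the 10 genes over the libraries, 5.92 in log2, and the genes most like it were looked up by the Euclidean distance of log2(FPKM + 1), centered on each gene's mean, over the 4 libraries. Of the 14429 genes, MDK, which codes for the growth factor midkine, was nearest at 0.436, with 85.2 and 80.1 FPKM in HCT116 and 0.457 and 14.8 in LOVO. AREG, the EGF family ligand amphiregulin, followed at 0.969 and DUSP6, a phosphatase of ERK, at 0.999. CLDN3 stood at rank 67 with a distance of 2.02. MDK, AREG and DUSP6 were, like CLDN4, highest in HCT116 and lowest in adherent LOVO cells.

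CLDN3 and CLDN4 lie 29271 bases apart on chromosome 7, on opposite strands. The genes within 100 kb of them were read after the values of the claudins had been seen. STX1A was at 8.82 and 14.4 FPKM in adherent cells and spheroids of HCT116 and at 1.16 and 4.24 FPKM in those of LOVO, which is the same order as for CLDN3 and CLDN4. VPS37D (6.67, 10.1, 0.171 and 1.19 FPKM) and TMEM270 (1.15, 1.77, 0 and 0.967 FPKM, from at most 29 reads) had that order too. METTL27, 1896 bases beyond CLDN4, was at 9.42, 4.09, 1.48 and 5.18 FPKM. ABHD11 was at 25.1, 22.9, 5.603 and 7.25 FPKM, and BUD23 at 20.4, 14.5, 23.2 and 18.8 FPKM, so that BUD23 was not low in LOVO. DNAJC30, at 1.36, 1.22, 4.89 and 4.20 FPKM, was higher in LOVO.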

How the data were processed

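The authors deposited 1 table of FPKM values, 1 column for each of the 4 libraries, with gene lengths. RNA libraries were made from total RNA with the SMARTER mRNA-Seq kit. The aligner, the counter and the use of strand are not given in the sources used here. The submitters' processing notes name the mouse builds GRCm38 and mm10, but all 58735 gene identifiers are human and in GENCODE 29 (GRCh38), whose exon lengths match those of the 10 genes in the table.

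FPKM times gene length gave whole multiples of a step for 100% of values above 0 (tolerance 0.001), from which reads were recovered. The authors' library sizes were 0.907 to 1.09 times the recovered totals, so the table already carries a scaling. Differences were taken on log2(FPKM + 1) for genes whose FPKM averaged 1 or more. Counting intervals are 95% exact (Clopper-Pearson) and cover counting error only. Genes with at most 3 reads were treated as at the floor. With 1 library per condition no test was made within a line. Limma 3.58.1 (R 4.3.3) was fitted over both lines with Benjamini-Hochberg adjustment. It was also run on simulated data in which the lines had the same levels and the same changes, unlike here. That run gives no error rate for this fit. Other steps used Python 3.11.15, numpy 2.4.6, pandas 2.3.3 and scipy 1.17.1. Raw reads were not used here.

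The 10 genes, the junction list and the markers were chosen with earlier results of these data known. All 10 genes are named. Other junction genes are named where a spheroid difference passed 1 in either line, with EPCAM, MARVELD2, CGN, CDH1 and GRHL2 in any case, and the 3 genes nearest to the member of widest range are named. Some genes that this rule takes are not reported here. The labels of figure points and the neighbors of CLDN3 and CLDN4 were chosen after their values were seen. Alternatives were other pseudocounts, TPM, TMM-style scaling, centring, filters, a threshold of 1, and reads in place of FPKM.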

Additional observations from a re-analysis of the deposited data

Results flagged for a closer look

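Some genes differed between spheroids and adherent cells in opposite directions in HCT116 and LOVO, each with 1 library per condition, and the difference between the lines was not tested. The values below are the LOVO difference minus the HCT116 difference on the log2(FPKM + 1) scale. Of the 10 tight junction genes, OCLN differed by 1.38 and CLDN2 by -0.49. The counting interval of CLDN2 in LOVO held 0, whereas those of OCLN excluded 0 in both lines.

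Of the other junction genes named, SNAI1 differed by 2.56, SPINT1 by 2.10, CLDN9 by 1.39, EPCAM by 0.48 and MARVELD2 by 0.35, with the higher value in LOVO. PARD3B differed by -1.89 and CGN by -0.27, with the higher value in HCT116. The counting intervals excluded 0 on both sides for SNAI1, SPINT1, PARD3B and EPCAM. CLDN9 in HCT116, MARVELD2 in LOVO and CGN in LOVO had intervals that held 0.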

How the results depend on the processing

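No paired analysis was possible because each line had 1 library per condition, except over both lines, where the limma fit with line as a term pairs the growth forms by line. No library could be left out within a line. None of the alternatives reversed a called direction. Past a threshold of 1 in place of 2 were 1 of the 10 genes in HCT116 and 3 in LOVO. Of all genes, 2.19% were above 1 and 3.33% below -1 in HCT116, and 8.57% and 7.85% in LOVO. Between adherent lines 7 of the 10 genes were past 1, where 17.4% of all genes were above 1 and 16.4% below -1. Between spheroids of the lines 8 were, against 17.7% and 15.0% of all genes. Between spheroids, 4 genes were past 2 with a pseudocount of 0.1, with 0.01 and with TPM, against 2. The numbers over all 14429 genes rose too. With the main settings 819 were above 2 and 679 below -2. They were 1396 and 1255 with a pseudocount of 0.1, 1483 and 1317 with 0.01, and 1489 and 979 with TPM. The median over the 10 genes in LOVO, 0.20, was 0.38 with a pseudocount of 0.1, 0.38 with 0.01 and 0.57 with TPM. TPM moved the median of all genes in LOVO from -0.06 to 0.10 and the share of genes above 0 from 45.5% to 55.4%, and between spheroids of the lines the median from 0.04 to 0.26. F11R in LOVO then went from -0.01 to 0.19. By reads in place of FPKM, the shares of the leading claudins were 35.9% (CLDN7, adherent HCT116), 59.5% (CLDN4, HCT116 spheroids), 52.9% (CLDN1, adherent LOVO) and 34.1% (CLDN1, LOVO spheroids). Among the 6 claudins of the list alone they were 50.6%, 47.9%, 52.9% and 35.8%. The difference in LOVO ranged from 3.13 to 5.04 for CLDN4, from 2.57 to 3.34 for CLDN3 and from 0.42 to 2.55 for OCLN, the highest being ratios of reads, an alternative chosen after seeing the data. With limma, 0 of the 10 genes had an adjusted p under 0.05 in any alternative, the smallest limma adjusted p of the genes ranging from 0.363 to 1.00. Levels below about 1 FPKM rest on few reads, and no depth replaces a second library.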

Other observations

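Some junction genes outside the naming rule also stood apart between the lines, and they were picked after their values were seen. CLMP, an adhesion molecule related to the coxsackievirus and adenovirus receptor, was at 0.529 and 0.502 FPKM in adherent cells and spheroids of HCT116 and at 49.1 and 42.5 FPKM in LOVO. MPDZ, a scaffold with many PDZ domains, had 1 read and 0 reads in HCT116 and was at 4.63 and 2.99 FPKM in LOVO, while its relative PATJ was at 7.16, 9.41, 6.24 and 3.96 FPKM over the libraries. TSPAN8, a tetraspanin, was at 5.98 and 10.7 FPKM in LOVO and had 2 reads and 0 reads in HCT116. LSR, the angulin that brings tricellulin to cell corners, was at 133 and 123 FPKM in HCT116 and at 14.4 and 19.6 FPKM in LOVO. SPINT2, an inhibitor of matriptase, was at 64.7 and 65.98 FPKM in HCT116 and at 0.161 and 0.755 FPKM in LOVO, and ST14, matriptase itself, was at 59.8 and 60.2 FPKM against 0.628 and 1.51 FPKM. The repressors ZEB1 and ZEB2 were higher in LOVO, at 2.89 and 3.80 FPKM for ZEB1 against 0.601 and 0.289 in HCT116, and at 0.567 and 0.551 FPKM for ZEB2, which had 0 reads in both HCT116 libraries. OVOL1, a transcription factor of the epithelial state, was at 5.57 and 6.73 FPKM in HCT116 and had 1 read in each LOVO library. All of these values come from 1 library per condition and have no replicate check.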
